A study of Homo sapiens with 6 samples.

Results

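The 9 genes described here take part in the lipid tagging and recycling of Rab GTPases. CHM, CHML, RABGGTA, RABGGTB and GDI2 encode the machinery, and RAB27A, RAB5A, RAB7A and RAB11A encode Rab GTPases that it acts on. The 9 genes were chosen by name among the 33707 genes of the deposited table, around CHM, the gene in which the microRNA under study lies. All 9 were found, and all 9 passed the filter on low values. Transcripts were measured by RNA sequencing in Huh7 cells, an established human liver cancer line, at day 2. The control group was 3 libraries from cells given mimics-NC, a negative control mimic. The other group was 3 libraries from cells given miR-361-3p mimics, synthetic copies of that microRNA. Both groups shared the cell line, the supplier of the mimics and the lipid transfection reagent. The dose, the sequence of mimics-NC and the strands of the mimic are not given in these sources.

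Rab GTPases direct membrane traffic, and each marks its own set of vesicles or organelles. A new Rab protein is bound by a Rab escort protein, which presents it to Rab geranylgeranyl transferase, and the enzyme adds geranylgeranyl lipids that let the Rab sit in a membrane. GDP dissociation inhibitors later draw the lipid-bearing Rab back out of the membrane and carry it to the next one. CHM encodes Rab escort protein 1, whose loss causes choroideremia, a degeneration of the retina, and CHML encodes its paralogue Rab escort protein 2. RABGGTA and RABGGTB encode the alpha and beta subunits of the transferase.

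The microRNA gene MIR361 lies inside CHM, on the same strand. On GRCh38 its hairpin occupies chrX:85903636-85903707, on the minus strand, within intron 9 of the 15-exon CHM transcript used here (GENCODE 29). That intron is 10072 bases long, and the hairpin starts 143.855 kilobases downstream of the transcript's start. The RefSeq sequences are shown because the 2 mature strands set which sites could pair with the mimic. In the hairpin the capitals mark the mature strands, and in each mature strand they mark the seed, bases 2 to 8.

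MIR361 hairpin: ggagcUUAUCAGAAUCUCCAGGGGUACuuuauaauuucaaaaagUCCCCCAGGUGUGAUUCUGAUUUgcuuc
hsa-miR-361-3p: uCCCCCAGgugugauucugauuu
hsa-miR-361-5p: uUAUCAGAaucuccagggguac

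**Figure D1:**
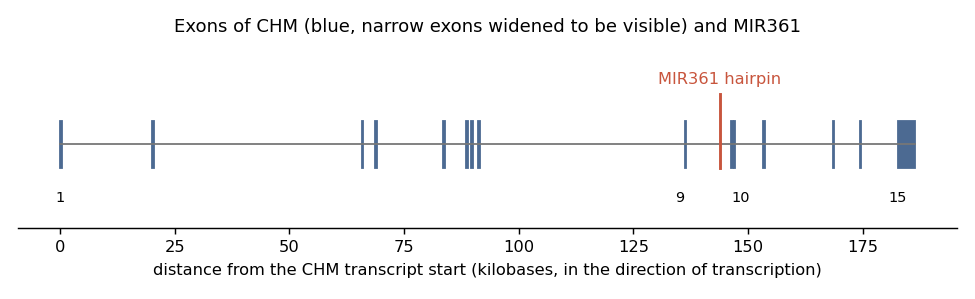
Map of the CHM transcript, drawn as distance in kilobases from its start. Blue boxes are the 15 exons (1, 9, 10 and 15 are numbered, and narrow exons are widened to be visible). The red line is the MIR361 hairpin, which lies 143.855 kilobases from the start between exons 9 and 10.

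Sites for these seeds were searched in 1 GENCODE 29 transcript per gene. For miR-361-3p these were CTGGGGGA (8mer), CTGGGGG (7mer-m8) and TGGGGGA (7mer-A1), and for miR-361-5p TCTGATAA, TCTGATA and CTGATAA. The search used the transcript strand, and a 7mer inside an 8mer was not counted again. A miR-361-3p site was present in the 3' UTR of 1 of the 9 genes, CHML. Of the 9492 tested genes with a 3' UTR, 23.8% held one. CHM, RABGGTA, RABGGTB, GDI2, RAB27A, RAB5A, RAB7A and RAB11A held 0 miR-361-3p sites in their 5' UTR, coding part and 3' UTR. The CHML site is a 7mer-A1 in a 3' UTR of 4943 bases, and 50.5% of the 293 tested 3' UTRs within 10% of that length held a miR-361-3p site. CHM and RAB7A each held 1 miR-361-5p site in the 3' UTR, against 33.9% and 12.7% of 3' UTRs of similar length. RAB5B, a paralogue of RAB5A, held an 8mer and a 7mer-A1 for miR-361-3p. An 8mer was held by 5.25% of tested genes, and any miR-361-3p site by 43.1% of 3' UTRs of similar length. The paralogues RAB5C and RAB27B also held miR-361-3p sites, a 7mer-m8 and a 7mer-A1. The stretches below show the sites of CHML, CHM and RAB7A and the 8mer of RAB5B in capitals. The bases around them are in small letters, and the coordinates are those of the capitals on GRCh38.

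CHML, miR-361-3p, chr1:241632120-241632126, minus strand: tgagaacagtaTGGGGGAaacaactccat
RAB5B, miR-361-3p, chr12:55992700-55992707, plus strand: cattaagggccCTGGGGGAgaataaagctc
CHM, miR-361-5p, chrX:85862066-85862072, minus strand: atatcatacaaCTGATAAaagactttaag
RAB7A, miR-361-5p, chr3:128813733-128813739, plus strand: gtggaagtcatTCTGATAtggagttggca

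The libraries held 35020139 to 52977132 reads assigned to genes. Replicates of a group differed by more than sampling noise (chi-square 4.15 to 9.38 times its degrees of freedom). For mimic replicate 3 the cell line field reads Huh8 but the title Huh7, and results are also given without it. For the controls the treatment field speaks of wild type cells but the titles of mimics-NC. The summed RPKM (reads per kilobase of gene and per 1000000 assigned reads) of 12 hepatocyte markers was 3487 to 3575 in the controls and 3330 to 3430 in the mimic libraries. The fibrinogen chain FGB made up most of this sum, at 2106 ± 20.4 and 1947 ± 48.6 RPKM (SD, n = 3), without overlap. APOH was at 12.01 and 14.3 RPKM, without overlap, and APOB at 448 and 480.4 RPKM, with overlap. TTR was at 0.271 and 0.584 RPKM and AFP at 1.24 and 1.18 RPKM in the control and mimic means. The sum over 9 markers of immune, endothelial, stromal and bile duct cells was 42.2 to 43.8 and 40.7 to 44.0 RPKM, of which CD68 made up 34.8 to 37.9. The collagen COL1A2, a stromal marker under the filter, measured 1.12 ± 0.319 and 0.668 ± 0.103 RPKM (SD, n = 3), without overlap, and COL1A1 0.978 ± 0.256 and 0.610 ± 0.0989 RPKM, with overlap. The endothelial marker VWF was at 0.0192 and 0.0043 RPKM in the means, without overlap. The part of these shifts in the results below was not tested. Of 11 hepatocyte and 2 other markers tested, 0 passed the limma test described next, while 1 hepatocyte marker was higher and 1 lower at an unadjusted p under 0.05 and likewise with voom. The leukocyte marker PTPRC was at 0 in 2 of the 3 control libraries and in the second mimic library.

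The design holds 1 comparison, mimic against control. Genes whose mean reached 1 RPKM were tested by limma on log2(RPKM + 0.5), and a gene is said to rise or fall when its p, after Benjamini-Hochberg adjustment across the 13158 genes that were tested, is under 0.05. CHM, RABGGTB and RAB5A rose, by 20.6%, 12.3% and 28.95% of the control mean RPKM. None of the 9 fell in the limma test. The other 6 did not pass, and 5 of the 9 had an unadjusted p under 0.05, as had 35.9% of all genes tested. With limma's voom on recovered reads 4 rose and 0 fell (15.7% and 13.4% of all genes with voom). Without the library tagged Huh8, 2 of the 9 rose and 0 fell, while 931 rose and 889 fell over the 13158 genes. No label says that libraries of a group came from separate cultures, so the spread behind each p-value may be technical only. Of all genes tested, 11.7% rose and 9.85% fell (21.5% in either direction). The 3 of 9 (33.3%) are to be read beside that background. The median log2 fold change of the 9 was 0.092, against 0.012 for all genes tested. The libraries are of bulk RNA, so more RNA in every cell and more cells with high levels cannot be told apart.

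CHM measured 3.14, 3.11 and 3.33 RPKM in the 3 control libraries and 3.97, 3.71 and 3.87 RPKM in the 3 mimic libraries. All 3 mimic libraries lay above all 3 controls. The means were 3.19 ± 0.117 and 3.85 ± 0.131 RPKM (SD, n = 3), on 1146 to 1497 reads per library. The log2 fold change was 0.24 (SE 0.050, 95% interval 0.12 to 0.36, adjusted p = 0.0178). The call was lost without control replicate 1 (adjusted p = 0.0506), control replicate 2 (0.0613), mimic replicate 1 (0.0562) or mimic replicate 3, the library tagged Huh8 (0.0587), while the log2 fold change stayed between 0.22 and 0.26. CHM spans chrX:85861180-86047562, on the minus strand, and shared no exon base with another single-locus gene of the table.

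CHML, the paralogue, measured 17.2, 16.4 and 16.9 RPKM in the controls and 16.0, 15.9 and 16.3 RPKM in the mimic libraries. The mimic libraries lay just below the controls, without overlap. The log2 fold change was -0.065 (SE 0.035, 95% interval -0.15 to 0.017, adjusted p = 0.227), so a small fall could not be told from none. CHML is a gene of few introns that lies within OPN3 on chromosome 1, from 241628853 to 241640254. It shares 373 exon bases with OPN3 on the same strand, and how reads there were assigned is not given in the sources used. OPN3, an opsin gene, measured 1.19 and 1.59 RPKM in the control and mimic means.

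CHML was the more abundant transcript per length, at 16.8 ± 0.390 against 3.19 ± 0.117 RPKM for CHM in the controls. Within each library, the log2 ratio of CHM to CHML (each with 0.5 added) was -2.28, -2.23 and -2.18 in the controls and -1.88, -1.96 and -1.94 in the mimic libraries. The ratio was higher in all 3 mimic libraries, by 0.30 on the log2 scale. An exact two-sided permutation test gave p = 0.1, the smallest that 3 against 3 libraries allow. Apart from the added 0.5, a ratio within a library does not depend on the scaling between libraries. With nothing added the difference was 0.34 (exact permutation p = 0.1).

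**Figure D2:**
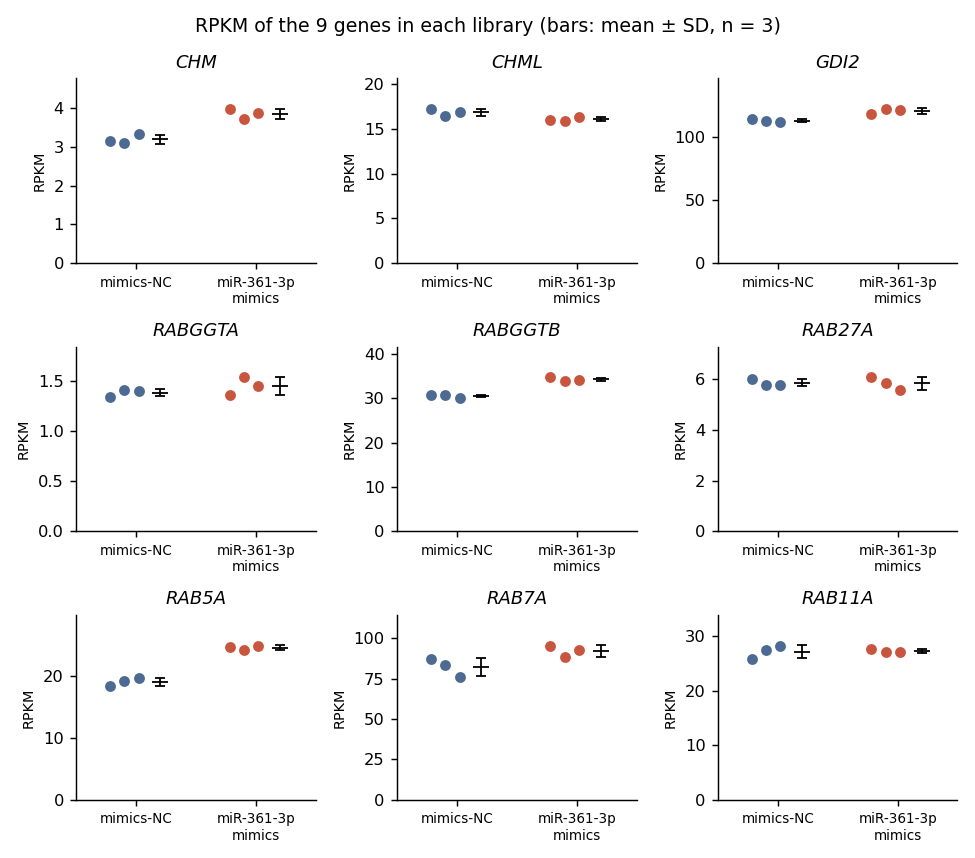
RPKM of the 9 genes in each of the 6 libraries, with 3 mimics-NC libraries in blue and 3 miR-361-3p mimics libraries in red. Black bars are the mean ± SD (n = 3), and each axis starts at 0. RAB5A shows the widest gap, from 18.4 to 19.7 RPKM in the controls to 24.2 to 24.98 RPKM in the mimic libraries. RABGGTA, RAB11A and RAB27A overlap.

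RABGGTB, the catalytic subunit of the transferase, measured 30.6, 30.6 and 30.2 RPKM in the controls and 34.7, 34.0 and 34.0 RPKM in the mimic libraries. The replicates were tight, with a coefficient of variation of 0.909% and 1.15%, and the groups lay apart. The log2 fold change was 0.16 (SE 0.030, 95% interval 0.094 to 0.24, adjusted p = 0.010). Leaving out each library in turn kept the call (adjusted p 0.0240 to 0.0413). RABGGTB spans chr1:75786197-75795079, on the plus strand. Its annotated exons contain the small nucleolar RNA genes SNORD45A, SNORD45B and SNORD45C and share 157 bases with ACADM, all on the same strand, and the part of reads from these genes was not tested. In the control and mimic means ACADM measured 47.0 and 51.2 RPKM and SNORD45B, the highest of the small RNAs, 38.03 and 33.7 RPKM.

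RABGGTA, the subunit that pairs with RABGGTB, measured 1.34, 1.41 and 1.40 RPKM in the controls and 1.36, 1.54 and 1.45 RPKM in the mimic libraries. The groups overlapped. It rested on 169 to 265 reads per library, and its log2 fold change was 0.049 (SE 0.068, 95% interval -0.11 to 0.21, adjusted p = 0.649). This interval includes the rise of RABGGTB. Although the proteins join in equal parts, the transcripts differed widely in RPKM, with a ratio of RABGGTA to RABGGTB of 0.0608 in the controls and 0.0561 in the mimic libraries (0.5 added to each). The log2 ratio was 0.12 lower in the mimic libraries, without overlap (exact permutation p = 0.1). This separation rests on the added 0.5. Without it the difference was -0.10, with overlap (exact permutation p = 0.2).

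GDI2, a GDP dissociation inhibitor, measured 114, 113 and 111 RPKM in the controls and 117, 122 and 121 RPKM in the mimic libraries. All mimic libraries lay above the controls, yet the test was not passed (log2 fold change 0.092, SE 0.031, adjusted p = 0.0793).

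RAB5A, the Rab of early endosomes, measured 18.4, 19.2 and 19.7 RPKM in the controls and 24.7, 24.2 and 24.98 RPKM in the mimic libraries. The lowest mimic library stood well above the highest control. The means were 19.1 ± 0.674 and 24.7 ± 0.384 RPKM (SD, n = 3), and the log2 fold change was 0.36 (SE 0.038, 95% interval 0.27 to 0.45, adjusted p = 0.0012). It kept its call whichever library was dropped (adjusted p 0.0043 to 0.0085). RAB5A spans chr3:19947079-19985175, on the plus strand, and shares 103 exon bases with PP2D1 on the opposite strand. PP2D1 measured 3.76 and 4.99 RPKM in the control and mimic means, and its part in the RAB5A value was not tested.

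The paralogues of RAB5A share its place on early endosomes, and neither passed the test. RAB5B measured 7.90, 7.80 and 7.64 RPKM in the controls and 7.36, 7.13 and 7.28 RPKM in the mimic libraries, without overlap (log2 fold change -0.095, adjusted p = 0.117). RAB5C measured 48.4, 44.8 and 44.9 RPKM and then 48.1, 55.7 and 50.9 RPKM, with overlap (0.16, adjusted p = 0.101, and 1 of 13 alternative fits, with voom, called it). RAB5C was the most abundant of the RAB5 transcripts per length. The log2 ratio of RAB5A to RAB5B plus RAB5C was -1.59 to -1.39 in the controls and -1.36 to -1.15 in the mimic libraries, higher by 0.23 (exact permutation p = 0.1).

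RAB7A, the Rab of late endosomes and lysosomes, measured 87.6, 83.3 and 76.1 RPKM in the controls and 95.5, 88.5 and 92.7 RPKM in the mimic libraries. The groups lay apart by a narrow margin, and the controls varied by 7.004% (coefficient of variation), the widest among the 9 in either group. The log2 fold change was 0.16 (SE 0.057, 95% interval 0.029 to 0.30, adjusted p = 0.0847). It passed without control replicate 1 (adjusted p = 0.0489) and with voom on recovered reads (adjusted p = 0.0127). Its paralogue RAB7B was not tested, with 4 reads in the third mimic library and 0 in the other libraries.

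RAB11A, the Rab of recycling endosomes, measured 25.8, 27.4 and 28.3 RPKM in the controls and 27.8, 27.2 and 27.2 RPKM in the mimic libraries. The groups overlapped, and the log2 fold change was 0.010 (95% interval -0.087 to 0.11, adjusted p = 0.881). RAB11B, its paralogue, measured 13.3 ± 0.420 and 13.5 ± 0.531 RPKM (SD, n = 3), a log2 fold change of 0.028 (adjusted p = 0.683). The log2 ratio of RAB11A to RAB11B was 1.01 and 0.99 in the group means (exact permutation p = 0.9).

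RAB27A, the Rab of secretory and melanosome transport, known to be poorly prenylated in cells that lack CHM, measured 6.03, 5.79 and 5.79 RPKM in the controls and 6.08, 5.88 and 5.57 RPKM in the mimic libraries. The groups overlapped, and the log2 fold change was -0.0068 (95% interval -0.12 to 0.10, adjusted p = 0.933). RAB27A shares 183 exon bases with PIGBOS1 on the same strand and 154 with PIGB on the opposite strand. RAB27B, its paralogue, measured 1.51, 1.34 and 1.65 RPKM in the controls and 2.09, 2.07 and 2.20 RPKM in the mimic libraries, without overlap. RAB27B rose, with a log2 fold change of 0.39 (SE 0.075, adjusted p = 0.0120, 472 to 730 reads per library), and the call held with any 1 library left out. The log2 ratio of RAB27A to RAB27B was 1.55 to 1.77 in the controls and 1.17 to 1.34 in the mimic libraries. It was lower by 0.40 in the mimic group mean (exact permutation p = 0.1). Without the added 0.5 the difference was -0.51 (exact permutation p = 0.1).

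**Figure D3:**
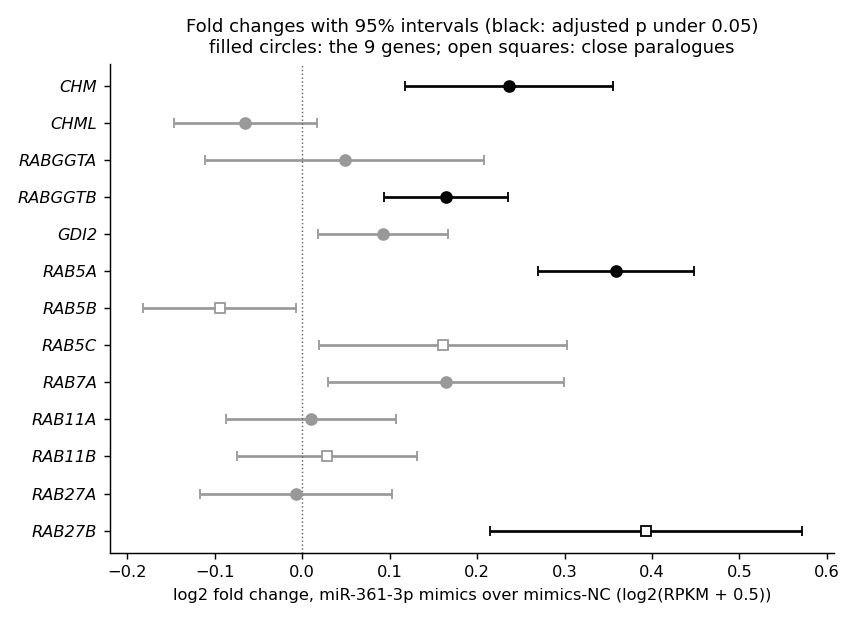
Log2 fold change of miR-361-3p mimics over mimics-NC with its 95% interval from limma, on the log2(RPKM + 0.5) scale. Filled circles are the 9 genes, open squares their close paralogues, and black marks an adjusted p under 0.05. CHM (0.24), RABGGTB (0.16), RAB5A (0.36) and RAB27B (0.39) passed.

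**Figure D4:**
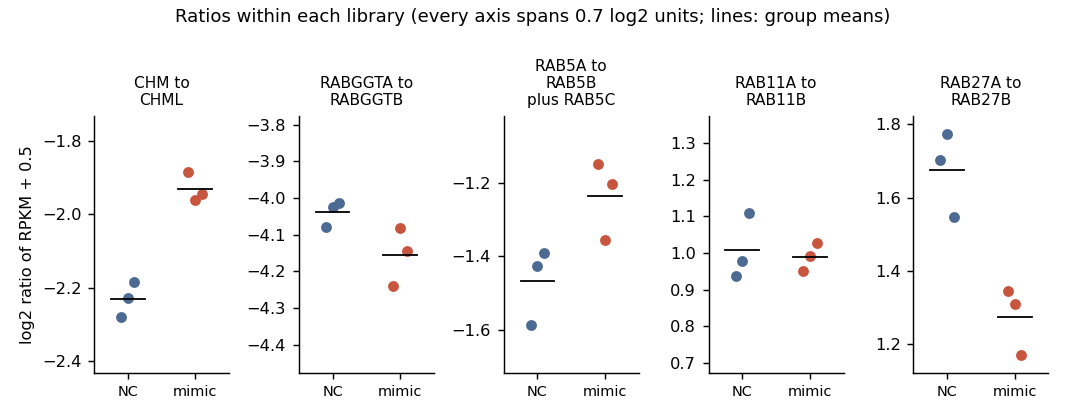
Log2 ratios within each library (RPKM + 0.5 of each gene or sum), with controls (NC) in blue, mimic libraries in red and lines at the group means. Every axis spans the same number of log2 units. The groups lie apart for 4 of the 5 ratios and overlap for RAB11A to RAB11B. Without the added 0.5 they also overlap for RABGGTA to RABGGTB.

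The order of the 9 genes by RPKM in the controls was GDI2 (113), RAB7A (82.3), RABGGTB (30.5), RAB11A (27.2), RAB5A (19.1), CHML (16.8), RAB27A (5.87), CHM (3.19) and RABGGTA (1.38). The libraries of neighbours in this order did not overlap in either group, and the order was the same in both groups. GDI2 stood above 96.9% of the genes tested in mean control RPKM, and RABGGTA above 9.6%. The narrowest margins in the control means were 1.12-fold, of RABGGTB over RAB11A, and 1.14-fold, of RAB5A over CHML. In 6 of the 9 genes the groups did not overlap, which was the case for 41.4% of all genes tested.

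Over the 6 libraries, which are 2 groups, the genes most like CHM by Pearson's r of log2(RPKM + 0.5) were BSDC1 (r = 0.997), ZNF181 (0.996), TACC1 (0.994), DOCK5 (0.993) and MPZL3 (0.993). The least like were MCM7 (-0.999), of the replicative helicase, E2F1 (-0.996), a transcription factor of S phase entry, and B4GALT5 (-0.995). Of the 13157 genes compared, 442 had an r above 0.95, and 330 had a negative r of more than 0.95 in size. Genes with clone or LINC names are in these counts but were left out when the genes above were ranked. All these values share the same 6 libraries and the step between the groups, and they are a description.

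The wider pathway was described by lists of genes named for their function. Of 12 genes for Rab escort, prenyl transfer and prenyl supply, 2 rose (CHM and RABGGTB) and 1 fell. For all genes tested the shares were 11.7% and 9.85%, and the median log2 fold change of the 12 was 0.021. The gene that fell was PTAR1, a homologue of the transferase's alpha subunit that pairs with RABGGTB in another prenyltransferase. PTAR1 measured 2.78, 2.68 and 2.63 RPKM in the controls and 1.96, 1.86 and 1.88 RPKM in the mimic libraries. All mimic libraries lay below the controls, with a log2 fold change of -0.41 (SE 0.054, adjusted p = 0.0027), and the call held with any 1 library left out.

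The 2 sister enzymes of the transferase were measured through their subunits. FNTA, the alpha subunit that both share, measured 5.78 ± 0.206 and 5.78 ± 0.191 RPKM (SD, n = 3; adjusted p = 0.996). FNTB, of farnesyl transferase, had a log2 fold change of 0.054 (adjusted p = 0.699). PGGT1B, of the other geranylgeranyl transferase, had one of -0.016 (adjusted p = 0.866). These did not pass, and the 95% interval for FNTA was -0.11 to 0.11.

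The lipid donors come from the mevalonate pathway. GGPS1, which makes geranylgeranyl diphosphate, measured 8.57 ± 0.519 and 8.01 ± 0.771 RPKM (adjusted p = 0.409), and FDPS, which makes its precursor, 40.8 ± 0.624 and 42.04 ± 0.681 RPKM (adjusted p = 0.367). RCE1 and ICMT, which trim and methylate prenylated proteins, had log2 fold changes of 0.11 (adjusted p = 0.447) and -0.064 (adjusted p = 0.509).

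Of 64 Rab GTPases named, 62 were in the table, 39 passed the filter, 7 rose and 4 fell. Their median log2 fold change was 0.046. Called genes made up 28.2% of those tested, against 21.5% of all genes. With 1 library left out 4 to 8 rose and 1 to 2 fell. Without control replicate 2, control replicate 3 or mimic replicate 2, 4 rose and 1 fell in each case, and without mimic replicate 1, 4 rose and 2 fell. Without control replicate 1, 8 rose and 1 fell, and without mimic replicate 3, 5 rose and 1 fell. Besides RAB5A and RAB27B, RAB2A, a Rab between the endoplasmic reticulum and the Golgi, rose from 15.7 ± 0.195 to 19.99 ± 0.610 RPKM (SD, n = 3; adjusted p = 0.0014). RAB10, of basolateral and insulin-regulated transport, rose from 98.8 ± 2.73 to 119 ± 3.31 RPKM (adjusted p = 0.0038). RAB8B, a relative of RAB8A in transport to the cell surface, fell from 8.02 ± 0.281 to 6.78 ± 0.170 RPKM (adjusted p = 0.0114). RAB21, of integrin endocytosis, fell from 4.11 ± 0.0740 to 3.55 ± 0.201 RPKM, a call kept in 1 of the 6 fits with a library left out (adjusted p up to 0.123).

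**Figure D5:**
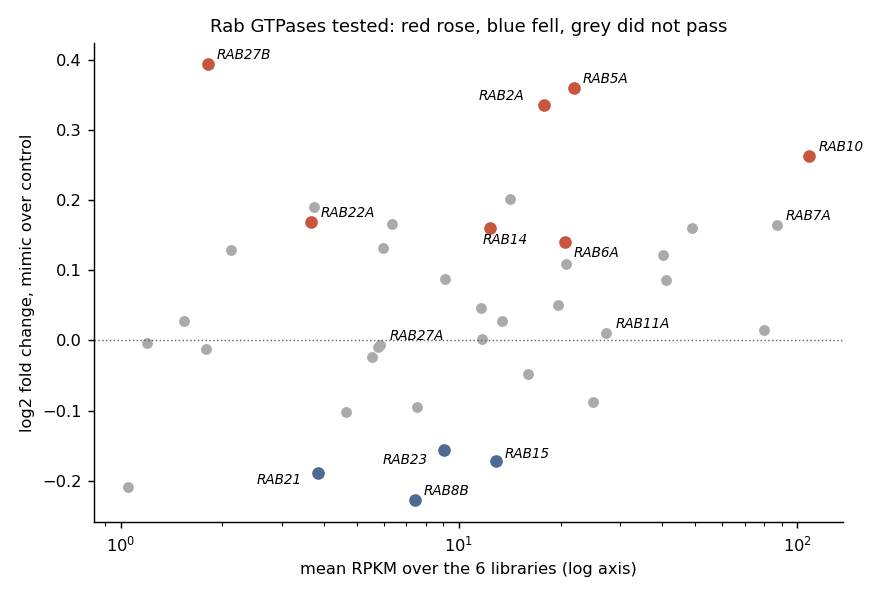
Log2 fold change (log2(RPKM + 0.5), mimic over control) against mean RPKM over the 6 libraries, on a log axis, for the 39 Rab GTPases tested. Red points rose (7), blue points fell (4) and grey points did not pass. RAB10 rose at the highest level, and RAB7A, RAB11A and RAB27A are grey.

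The summed RPKM of the 62 Rab GTPases was 726, 721 and 704 in the controls and 774, 775 and 771 in the mimic libraries. Every mimic library lay above every control, by 7.93% in the means (exact permutation p = 0.1). Unlike a ratio within a library, a sum depends on the scaling between libraries. The difference in means was 56.8 RPKM, and 49.3 RPKM with median-of-ratios scaling (exact permutation p = 0.1). RAB5A held 2.53% to 2.80% of this sum in the controls and 3.124% to 3.24% in the mimic libraries. RAB27A held 0.803% to 0.832% and then 0.723% to 0.785%, while its own mean RPKM moved by -0.467% and the sum grew. RAB7A held 10.8% to 12.1% and 11.4% to 12.3%, with overlap, and RAB11A held 3.56% to 4.02% and 3.50% to 3.59%, also with overlap.

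Effectors, which bind an active Rab, and regulators were mixed. Their lists are small, and of all genes tested 11.7% rose and 9.85% fell. Of 10 effectors of RAB5, 1 rose and 2 fell (median log2 fold change -0.012). The tether EEA1 rose from 19.5 ± 1.501 to 23.4 ± 1.40 RPKM (SD, n = 3; adjusted p = 0.0343), a call kept without control replicate 3 (adjusted p up to 0.0981 in the other fits with 1 library left out). RABEP1, which joins RAB5 to its exchange factor, fell from 29.2 ± 0.208 to 26.1 ± 0.890 RPKM (adjusted p = 0.0226), and APPL2 fell from 4.34 ± 0.168 to 3.77 ± 0.141 RPKM (adjusted p = 0.0433). The call of RABEP1 held in 2 of the 6 fits with a library left out and that of APPL2 in 0 (adjusted p up to 0.0738 and 0.114).

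Of 6 tested effectors of RAB7, VPS41, of the HOPS tethering complex, rose from 19.2 ± 0.384 to 22.5 ± 0.593 RPKM (adjusted p = 0.0061), and 0 fell by limma (1 lower at an unadjusted p under 0.05, and 1 with voom). Of 7 effectors of RAB11, 0 rose and 3 fell by limma, also with voom, and 0 were higher at an unadjusted p under 0.05. By limma 11.7% of all genes tested rose and 9.85% fell. RAB11FIP4 fell from 8.05 ± 0.229 to 6.32 ± 0.115 RPKM (adjusted p = 0.0023), RAB11FIP2 from 4.09 ± 0.144 to 3.44 ± 0.0627 RPKM (0.0174) and RAB11FIP3 from 5.38 ± 0.244 to 4.58 ± 0.124 RPKM (0.0238). These encode adaptor proteins of recycling endosomes. With 1 library left out, RAB11FIP4 kept its call in 6 of 6 fits, RAB11FIP2 in 4 and RAB11FIP3 in 1 (adjusted p up to 0.0736).

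Of 3 tested effectors of RAB27, 2 fell, beside 9.85% of all genes tested. Melanophilin, MLPH, fell from 13.9 ± 0.316 to 12.3 ± 0.300 RPKM (adjusted p = 0.0228) and SYTL4, granuphilin, from 3.93 ± 0.0449 to 3.50 ± 0.0587 RPKM (0.0499). With 1 library left out, MLPH kept its call in 2 of 6 fits and SYTL4 in 0 (adjusted p up to 0.0776 and 0.127). Of 21 tested exchange factors and GTPase-activating proteins, 3 rose and 0 fell by limma (2 lower at an unadjusted p under 0.05, and 1 with voom). The GTPase-activating protein RABGAP1L rose from 3.15 ± 0.136 to 4.11 ± 0.188 RPKM (adjusted p = 0.0059), in every fit with a library left out. MON1B, of the RAB7 exchange factor, rose from 4.65 ± 0.147 to 5.37 ± 0.180 RPKM (0.0290), and RABGAP1 from 8.40 ± 0.1001 to 9.33 ± 0.155 RPKM (0.0305). With 1 library left out, MON1B kept its call in 1 of 6 fits and RABGAP1 in 0 (adjusted p up to 0.0924 and 0.0990).

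Across these lists and a further list of 6 GDP dissociation inhibitors and displacement factors, of which 0 rose and 0 fell by limma (1 higher and 1 lower at an unadjusted p under 0.05, and 0 and 1 with voom), 14 of the 104 genes tested rose and 12 fell, 25% against 21.5% of all genes tested. With 1 library left out, whichever it was, 7 to 12 rose and 4 to 5 fell, while over all genes 895 to 1193 rose and 885 to 990 fell, against 1539 and 1296 with every library. Of the 102 with a 3' UTR in the reference, 28 (27.5%) held a miR-361-3p site, against 23.8% of all genes. Among the 28 list genes with a site 1 rose and 4 fell (median log2 fold change -0.014). Among the 74 without a site 13 rose and 8 fell, with a median of 0.049. The 4 that fell with a site were APPL2, RAB21, RAB11FIP3 and SYTL4, and the 1 that rose was RAB27B. Over all genes 11.4% of those with a site rose and 10.7% fell, against 13.05% and 11.5% of those without, and the medians were 0.0037 and 0.010. Of the 7 genes of these lists with an 8mer, 0 rose and 0 fell by limma, RAB5B among them (1 higher and 2 lower at an unadjusted p under 0.05, and 1 of each with voom). Of the 498 tested genes with an 8mer, 49 rose and 51 fell. The medians of these lists and of all genes are on the log2(RPKM + 0.5) scale.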

How the data were processed

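RNA was sequenced from 6 Huh7 libraries, 3 per group, after stranded mRNA library preparation per the labels' protocols. The authors deposited 1 table of RPKM values with each gene's length and position. Per the submitters' processing notes, Trimmomatic 0.36, featureCounts of Subread 1.5.1, edgeR 3.12.1 and GRCh38 were used. The aligner, the annotation and the strand setting are not given in the sources used. RPKM times length gave whole reads for 100% of values (within 0.01), which gave the depths and the reads for voom. Other work used R 4.3.3 with limma 3.58.1: a trended empirical Bayes fit on log2(RPKM + 0.5), which understates changes of low genes, over genes whose mean reached 1 RPKM, two-sided, without a replicate block. The fit was tested on simulated data with log2 changes of 0.5 and 1 in size. These are larger than the changes of the 9 genes, so its power at their sizes was not tested. The named genes are the 9, close paralogues, and the tested escort and prenylation genes. Up to 6 called genes without overlap per other list, by size of change, are also named. So are the 5 most and 3 least like CHM, apart from genes with clone or LINC names. Members and lists were chosen with earlier results of these data known. Transcripts were 1 per gene from GENCODE 29, by APPRIS level and then the longest 3' UTR. RAB20 and RAB44 were not analysed here, nor was MIR361's own transcript. Results for 1 gene of the lists are not reported here. Alternatives were other pseudocounts (0.1 and 1), no filter, median-of-ratios and quantile scaling, voom, a replicate block and leaving out each library.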

Additional observations from a re-analysis of the deposited data

How the results depend on the processing

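The rises of RABGGTB and RAB5A held in 13 of 13 alternatives and that of CHM in 9 of 13. Leaving out 1 library gave log2 fold changes of 0.22 to 0.26 for CHM, 0.11 to 0.21 for RAB7A, -0.025 to 0.039 for RAB11A and -0.033 to 0.024 for RAB27A, and 2 to 3 of the 9 genes rose. CHM lost its call in 4 of these fits (0.23, 0.22, 0.22 and 0.23), and RAB7A passed without control replicate 1 (0.21) and with voom (0.17). RAB11A changed sign without control replicate 1 (-0.025) and under median-of-ratios scaling (-0.0037), and RAB27A without control replicate 1 (0.012) or mimic replicate 3 (0.024), with intervals that span 0. Over all genes, 870 rose and 846 fell without the filter, where 33707 genes were adjusted over, and 895 to 1193 rose with 1 library left out. Of the 104 pathway list genes tested, 24 rose and 16 fell with voom, beside 15.7% and 13.4% of all genes. Without the filter 10 list genes rose and 7 fell. Dropping 1 library left 7 to 12 list genes risen and 4 to 5 fallen. Median-of-ratios scaling gave 1356 risen and 1453 fallen genes in all, and 10 and 14 in the lists. Same-numbered libraries did not deviate together (r -0.052, -0.016 and 0.023). With 3 libraries per group this cannot tell whether they were prepared together. With a replicate block 3 of the 9 genes rose and 0 fell, while 9 list genes rose and 4 fell. Over all genes tested, 1034 rose and 942 fell in that fit. The cause of these shifts was not tested. RABGGTA, at 169 to 265 reads per library, is the least precise of the 9.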
